A study of Mus musculus with 78 samples.

Results

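Mouse embryos cultured for 2 days were compared with embryos cultured for 1 day, across every gene of the expression table that holds both. The 4 libraries labelled with these culture times, 2 for each time, were taken from the 78 samples of the series. The series followed DNA methylation, expression and chromatin folding in mouse embryos from the blastocyst to gastrulation. Both groups came from C57BL/6N females that were superovulated with injections of 5 IU of each of 2 gonadotrophins and mated to DBA/2N males, with no genetic change named. Embryos were flushed from the uterus at E4.5, although the column names of the table carry E4.0, and were kept 1 or 2 days in CMRL 1066 medium with glutamine, pyruvate and 20% fetal bovine serum. The tissue is labelled whole embryo, whereas the extraction protocol given for the same samples describes removal of the zona pellucida, immunosurgery to isolate the inner cell mass, and direct lysis. Which of these applies is not settled by the labels, and the libraries are called embryos here. Groups from the embryo itself were set beside them, all of the same cross: E4.0 inner cell mass from superovulated mothers, isolated by immunosurgery and lysed directly, and E5.5 epiblast and E5.5 visceral endoderm from naturally mated mothers with RNA from a column kit. Each of these groups had 2 libraries, all were made with Smart-Seq2, a method for full-length cDNA from small amounts of RNA, and nothing in the labels says whether paired libraries came from separate litters.

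Around implantation the inner cell mass divides into epiblast, which forms the body, and primitive endoderm, which gives the visceral and parietal endoderm of the yolk sac. The epiblast leaves its naive state, in which factors such as Nanog and Esrrb are active, and takes up a formative state marked by Fgf5, Otx2 and the de novo DNA methyltransferases. Visceral endoderm takes up and transports nutrients and secretes carrier proteins such as transthyretin and apolipoproteins. The trophectoderm surrounds both and gives rise to giant cells, which secrete placental lactogens, and to the proliferating trophoblast of the placenta. Blastocysts kept in medium with serum can attach to the dish, where their trophoblast spreads outward.

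Expression was given as FPKM, fragments counted relative to the length of the transcript and to all mapped fragments of the library. The 4 libraries summed to between 535833 and 580771 FPKM and held between 8604 and 9768 genes at 1 FPKM or more. The number of reads is not known, but the lowest values stepped in whole fragments, and these steps gave the depth of the libraries relative to each other. Taking the first 1-day library as 1, the second had a relative depth of 1.07 and each 2-day library 1.31. Actb, the beta-actin gene, stood at 12800 FPKM in both 1-day libraries and in the first 2-day library and at 24200 FPKM in the second 2-day library, against 1110 to 3290 FPKM in the other 26 expression libraries, whose tables were made separately. Gapdh, a glycolytic enzyme gene, stood at 624 and 622 FPKM after 1 day and at 574 and 249 FPKM after 2 days.

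Replicates of 1 culture time differed from each other more than the culture times differed on average. On the log2(FPKM + 1) scale, 3264 of 9924 genes (32.9%) differed by at least 1 between the 1-day libraries and 3209 (32.3%) between the 2-day libraries. Between the means of the 2 times, 1833 genes (18.5%) did so. A mean of 2 libraries varies less than a single library, so the last share is not on the same footing as the others. The SD of the difference between replicates was 1.20 for 1 day and 1.18 for 2 days, and 0.256 to 0.758 in the other 13 groups. Each group therefore had its own weight in the test, 0.175 for 1 day, 0.187 for 2 days and 0.326 to 4.63 elsewhere. Libraries also stood apart in lineage markers. The first 2-day library had the lowest mean level of the core pluripotency list and the highest of the trophectoderm list, and the first 1-day library had the lowest mean of the visceral endoderm list. Markers of epiblast, endoderm and trophectoderm were each found in both groups.

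**Figure D1:**
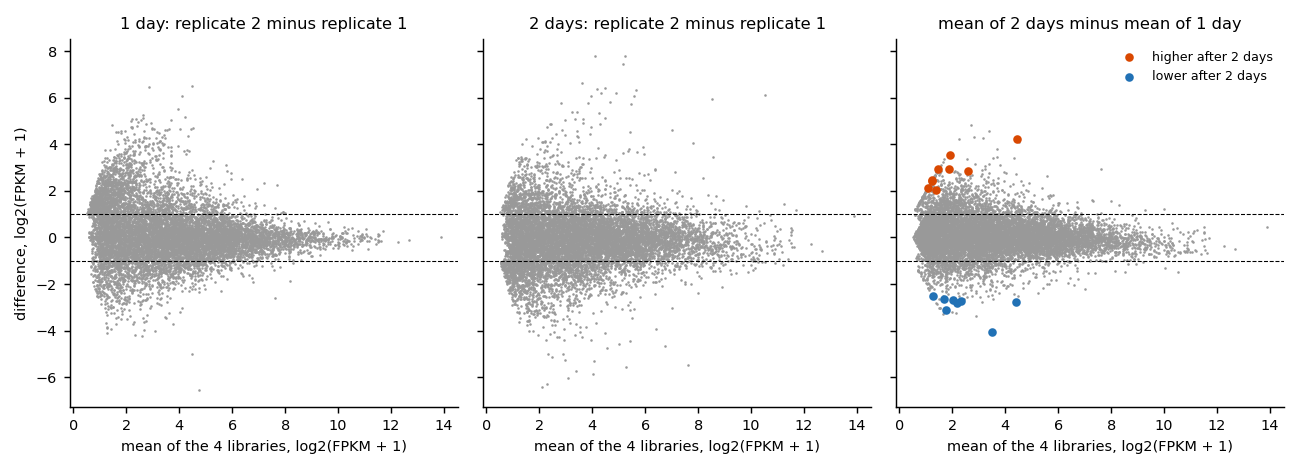
Difference on the log2(FPKM + 1) scale (vertical axis) against the mean of the 4 libraries (horizontal axis) for the 9924 genes tested, between the 1-day replicates (left), the 2-day replicates (middle) and the means of the culture times (right). Dashed lines mark a difference of 1, and coloured points are the 9 genes higher and the 8 genes lower after 2 days; the clouds of the replicate panels are wider than that of the right panel.

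Markers of visceral endoderm were near 0 in the first 1-day library, low in the second and clearly present in both 2-day libraries. Transthyretin (Ttr), a carrier of thyroid hormone and retinol-binding protein, was listed at 0 and 1.44 FPKM after 1 day and at 36.4 and 24.9 FPKM after 2 days. Apolipoprotein M (Apom), a lipid carrier, gave 0 and 0.476 FPKM after 1 day and 40.1 and 28.0 FPKM after 2 days. The lectin gene Lgals2 gave 7.5e-06 and 3.13 FPKM after 1 day and 32.0 and 46.9 FPKM after 2 days. For all 3 genes both 2-day libraries lay above both 1-day libraries. Differences on the log2(FPKM + 1) scale were 4.32 (SE 1.37) for Ttr, 4.83 (SE 1.26) for Apom and 4.29 (SE 1.18) for Lgals2. None passed the test, with limma adjusted p of 0.352, 0.136 and 0.190. With every group given the same spread all 3 were called higher, at limma adjusted p of 2.47e-06, 1.57e-06 and 3.31e-04. Leaving out any 1 library kept the differences between 3.27 and 5.31, and none passed then either. Without the first 1-day library, which had the least of these RNAs, they were 3.67 for Ttr, 4.55 for Apom and 3.27 for Lgals2. In bulk libraries such as these, fewer cells of a type and less RNA per cell cannot be told apart.

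Genes of the uptake machinery of this epithelium had the same order of libraries. Amnionless (Amn), part of the receptor for vitamin B12 and filtered proteins, stood at 0.016 and 10.9 FPKM after 1 day and at 39.9 and 57.4 FPKM after 2 days. The endocytic adaptor Dab2, which the trophectoderm list also holds, gave 0.0726 and 27.3 FPKM after 1 day and 98.4 and 86.6 FPKM after 2 days. Both were above in each 2-day library, with limma adjusted p of 0.234 (Amn) and 0.136 (Dab2). Cubn, the binding partner of Amn, reached 4.88 FPKM in the second 2-day library and under 1 FPKM elsewhere, and did not enter the test. Spink3, a protease inhibitor gene, was at 7.08 and 33.2 FPKM after 1 day and at 484 and 104 FPKM after 2 days. It is missing from the other tables and was tested only in a fit of the 4 libraries alone, where its limma adjusted p was 0.966.

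Not every product of visceral endoderm had that order. Apolipoprotein E (Apoe) was high throughout, at 72.8 and 347 FPKM after 1 day and 277 and 263 FPKM after 2 days. Apoa1 gave 0 and 10.6 FPKM after 1 day and 77.6 and 7.90 FPKM after 2 days, and Apoa2 was listed at 0 in the first library of each time. Alpha-fetoprotein (Afp) reached at most 2.00 FPKM, and the fibrinogen genes Fga, Fgb and Fgg stayed under 1 FPKM. Of the list of 20 visceral endoderm genes 10 entered the test, which asked for at least 1 FPKM in at least 2 of the 4 libraries. None was called, where 0.171% of all 9924 genes were called in either direction. At that share, the lack of a call in a list of 20 genes or fewer says little about the list. This holds for every list below. In 5 of the 10 both 2-day libraries lay above both 1-day libraries and in 0 below, against 18.4% above and 15.6% below among all genes tested. The median difference of the 10 was 2.39, beside 0.04 for all genes tested. The 5 include Ttr, Apom and Lgals2, markers set beforehand with earlier results of these data known. Apom and Apoa4 passed the filter through the 2-day libraries alone. The count and the median thus depend in part on how genes were chosen.

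The levels after 2 days were well below those of dissected visceral endoderm, although the tables were made separately. The cultured libraries also held markers of epiblast and trophectoderm, so a mixture is set beside a single tissue. The share of endoderm in the mixture was not measured, and levels per endoderm cell cannot be compared. Ttr averaged 30.6 ± 8.13 FPKM (SD, n = 2) after 2 days of culture, 1020 ± 178 in E5.5 visceral endoderm and 0.0881 ± 0.125 in E4.0 inner cell mass. Apom averaged 34.1 ± 8.59 FPKM after 2 days and 709 ± 232 in E5.5 visceral endoderm. Amn stood closer, at 48.6 ± 12.4 FPKM after 2 days, 186 ± 28.1 in E5.5 visceral endoderm and already 72.3 ± 55.1 in E4.0 inner cell mass.

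**Figure D2:**
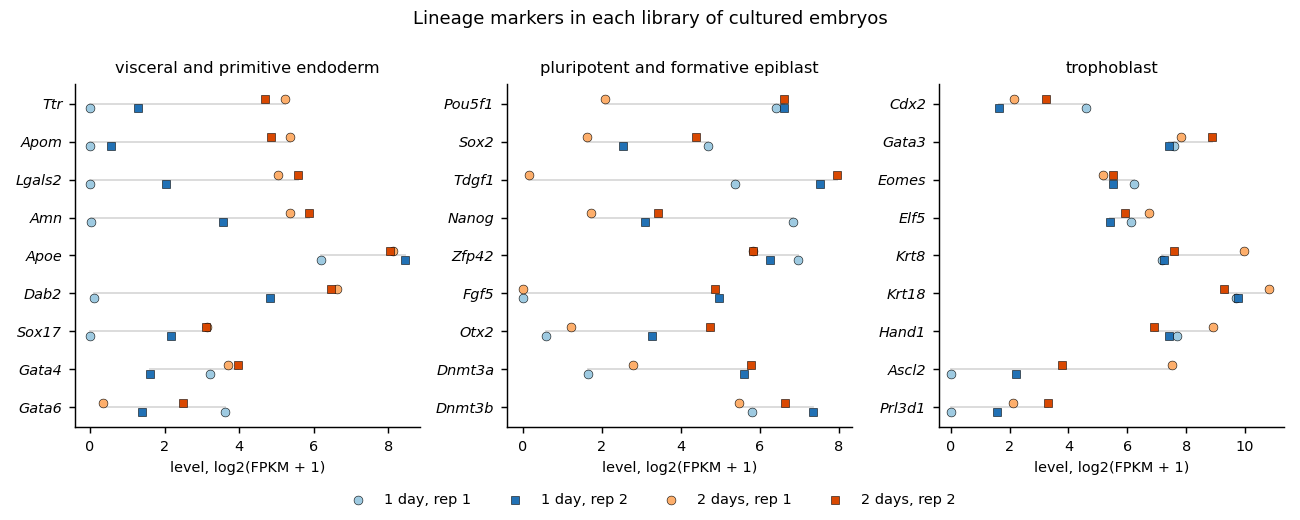
Level on the log2(FPKM + 1) scale (horizontal axis) of lineage markers in each of the 4 libraries; blue marks 1 day, orange 2 days, circles replicate 1 and squares replicate 2, and grey lines span the values. Ttr, Apom, Lgals2, Amn and Dab2 lie higher in both 2-day libraries, while Pou5f1, Tdgf1 and Fgf5 separate replicates and not days.

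Primitive endoderm regulators and the extracellular matrix they accompany gave a mixed picture. Sox17, an endoderm transcription factor, was listed at 0 and 3.51 FPKM after 1 day and at 7.79 and 7.65 FPKM after 2 days (limma adjusted p = 0.468). The collagen chaperone Serpinh1 went from 0 and 9.30 FPKM to 9.51 and 52.9 FPKM (limma adjusted p = 0.986). Gata6, the factor that specifies the lineage, had its highest value in the first 1-day library, with 11.3 and 1.65 FPKM after 1 day and 0.274 and 4.69 FPKM after 2 days. Of 15 members tested 0 were called, and 8 lay above in both 2-day libraries and 0 below, against 18.4% above and 15.6% below among all genes tested. The median difference was 0.64, and with no weights 5 of the 15 were called higher, where 5.84% of all genes were. In the parietal endoderm list, 0 of 7 were called and the median was 0.47. Its basement membrane collagen Col4a1 gave 0.817 and 3.67 FPKM after 1 day and 4.58 and 8.45 FPKM after 2 days, and the laminin gene Lamb1 ranged from 1.45 to 5.77 FPKM with overlap. The hormone receptor gene Pth1r was at 4.07 to 8.77 FPKM. The proteoglycan gene Srgn gave 0.354 and 26.6 FPKM after 1 day and 34.2 and 121 FPKM after 2 days (limma adjusted p = 0.635).

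Signals and inhibitors of the anterior visceral endoderm, the organiser that patterns the epiblast, summed to between 4.25 and 56.9 FPKM over the list, with the higher sum of each time in replicate 2. Otx2, a member given below with the formative genes, had the highest single value, 25.9 FPKM in the second 2-day library. Lefty1, an inhibitor of Nodal, gave 0.372 and 12.7 FPKM after 1 day and 0 and 7.48 FPKM after 2 days. Hhex, an early factor of the anterior cells, stood between 0.166 and 4.58 FPKM, with the higher value of each time in replicate 2. The Wnt inhibitors Sfrp1 and Dkk1 were lowest in the first 2-day library, at 0.102 and 0.487 FPKM, and ranged up to 7.26 and 5.05 FPKM in the others. Cer1 reached 1.14 FPKM in a single library, and Lhx1 and Gsc were listed at 0 in all 4. None of the 7 members tested was called, 0 lay above and 0 below in both 2-day libraries, and the median difference was -0.27. Over all genes tested 18.4% lay above and 15.6% below.

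Pluripotency genes separated the 2-day libraries from each other. Pou5f1 (Oct4), the factor that holds pluripotent identity, stood at 84.4 and 97.3 FPKM after 1 day and at 3.21 and 96.7 FPKM after 2 days. The first 2-day library was thus low, and the second was at the level of the 1-day libraries. The Nodal co-receptor gene Tdgf1 gave 40.2 and 184 FPKM after 1 day and 0.115 and 246 FPKM after 2 days. Dppa5a, an RNA-binding protein gene of pluripotent cells, gave 2110 and 2820 FPKM after 1 day and 104 and 7370 FPKM after 2 days. Dppa4, a chromatin protein gene of pluripotent cells, was likewise lowest there, at 38.5 FPKM beside 112 to 130 FPKM. Utf1 and Sall4 were present in all 4 libraries, at 287 to 643 and 90.9 to 313 FPKM. The difference for Pou5f1 was -2.18 (SE 1.79, limma adjusted p = 1), and its groups overlapped. Without the first 2-day library it was 0.09, and without the second -4.44. Of 9 core pluripotency genes 0 were called, all 9 overlapped, and the median difference was -0.59. Over all genes tested 18.4% lay above in both 2-day libraries and 15.6% below. Their mean level on the log2(FPKM + 1) scale was 5.89 and 6.10 after 1 day and 3.97 and 6.78 after 2 days.

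The list of naive factors had its highest mean level in the first 1-day library, at 4.94 on the log2(FPKM + 1) scale, beside 3.44 in the second and 2.47 and 4.08 after 2 days. Nanog stood at 113 and 7.54 FPKM after 1 day and at 2.33 and 9.81 FPKM after 2 days, so the value of a single library set its difference of -2.38 (SE 1.55, limma adjusted p = 1). Esrrb, an orphan receptor of the naive network, gave 15.1 and 4.84 FPKM after 1 day and 1.39 and 4.11 FPKM after 2 days (limma adjusted p = 0.460). Dppa3 (Stella), which protects methylation in the early embryo, gave 26.5 and 13.8 FPKM after 1 day and 3.30 and 1.78 FPKM after 2 days, with groups that did not overlap and limma adjusted p = 1. Zfp42 (Rex1) had 125 and 75.2 FPKM after 1 day and 55.6 and 56.2 FPKM after 2 days. Fgf4, the epiblast ligand that drives the primitive endoderm, was nearly absent from the first 2-day library, at 0.0702 FPKM beside 14.9 to 33.3 FPKM in the other 3. In the list of naive factors 0 of 13 were called, 0 lay above and 3 below, and the median difference was -0.78. The shares over all genes tested were 18.4% above and 15.6% below.

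Formative genes had the higher mean level in replicate 2 of both times, at 3 and 4.65 after 1 day and 2.58 and 4.91 after 2 days on the log2(FPKM + 1) scale. Fgf5, the ligand that marks the post-implantation epiblast, was at 30.3 and 28.0 FPKM in the second libraries of 1 and 2 days, listed at 0 in the first 1-day library and at 4.04e-04 FPKM in the first 2-day library. Otx2, a head and epiblast transcription factor, gave 0.514 and 8.68 FPKM after 1 day and 1.35 and 25.9 FPKM after 2 days. Lef1, an effector of Wnt signals, stood at 1.19 and 147 FPKM after 1 day and at 0.118 and 247 FPKM after 2 days. Tcf15, a factor of cells leaving the naive state, gave 12.2 and 40.6 FPKM after 1 day and 0.272 and 83.9 FPKM after 2 days, and Pou3f1 (Oct6) gave 28.3 and 82.1 FPKM after 1 day and 23.9 and 49.5 FPKM after 2 days. The gap between replicates was larger than the gap between days for Fgf5, Otx2, Lef1, Tcf15 and Pou3f1. None of 10 formative genes tested was called, all 10 overlapped, and the median difference was -0.14. Over all genes tested 18.4% lay above in both 2-day libraries and 15.6% below.

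Of the enzymes that write DNA methylation, Dnmt3a had the same replicate order. It stood at 2.15 and 47.5 FPKM after 1 day and at 5.93 and 53.5 FPKM after 2 days, a difference of 0.65 (SE 1.07, limma adjusted p = 1). The sign of that difference depended on the libraries: it was -1.32 without the first 1-day library, 2.63 without the second, 2.14 without the first 2-day library and -0.83 without the second. Dnmt3b, the other de novo enzyme, gave 54.8 and 161 FPKM after 1 day and 43.7 and 98.9 FPKM after 2 days. Their cofactor Dnmt3l gave 121 and 95.1 FPKM after 1 day and 21.6 and 169 FPKM after 2 days. The maintenance enzyme Dnmt1 varied little, at 24.6 and 17.6 FPKM after 1 day and 25.5 and 17.7 FPKM after 2 days. Its partners Uhrf1 and Hells ranged from 54.5 to 117 FPKM and from 18.0 to 130 FPKM, each lowest in the first 2-day library. The oxidising enzymes Tet1, Tet2 and Tet3 lay between 1.73 and 8.51, 2.43 and 19.1, and 1.91 and 4.82 FPKM. Tdg, which removes oxidised bases, ranged from 9.19 to 13.9 FPKM. The zinc-finger protein Zfp57, which guards imprints, and its partner Trim28 ranged from 8.27 to 63.3 FPKM and from 50.3 to 151 FPKM, again lowest in the first 2-day library. None of the 12 was called, where 0.171% of all genes tested were called in either direction. Dnmt3a in E5.5 epiblast averaged 99.7 ± 2.54 FPKM and in E4.0 inner cell mass 18.4 ± 7.62 FPKM.

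Trophectoderm genes were present in all 4 libraries, and the list had its highest mean level in the first 2-day library. The lineage factor Gata3 stood at 192 and 170 FPKM after 1 day and at 225 and 467 FPKM after 2 days. Keratin 8 (Krt8) gave 145 and 150 FPKM after 1 day and 1010 and 190 FPKM after 2 days, and Elf5, a factor of trophoblast stem cells, ranged from 41.2 to 105 FPKM. In the separately made table of the embryo, E4.0 inner cell mass had 1.17 ± 0.114 FPKM of Gata3, 4.65 ± 2.21 of Krt8 and 0 ± 0 of Elf5. Ascl2, a factor of placental progenitors expressed from the maternal copy, was listed at 0 and 3.65 FPKM after 1 day and at 184 and 12.9 FPKM after 2 days (limma adjusted p = 0.247). Plac1, a placental gene, was likewise highest in the first 2-day library, at 225 FPKM, beside 0, 11.3 and 3.22 FPKM in the others. So was Gata2, at 93.9 FPKM beside 4.02 to 5.90 FPKM. The lectin gene Lgals3 gave 82.0 and 27.4 FPKM after 1 day and 181 and 99.2 FPKM after 2 days (limma adjusted p = 0.975). Of 18 members tested 0 were called, and 8 lay above and 0 below, against 18.4% above and 15.6% below among all genes tested. Dab2, given above with the endoderm genes, was one of the 8. The median difference of the list was 0.62, and with no weights 3 of the 18, Dab2 among them, were called higher. With no weights 5.84% of all genes were called higher. The mean level of the list on the log2(FPKM + 1) scale was 5.10 and 5.07 after 1 day and 6.80 and 5.41 after 2 days. The library with the highest trophectoderm mean was the one with the lowest core pluripotency mean, and the part of tissue content in the comparison was not tested.

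**Figure D3:**
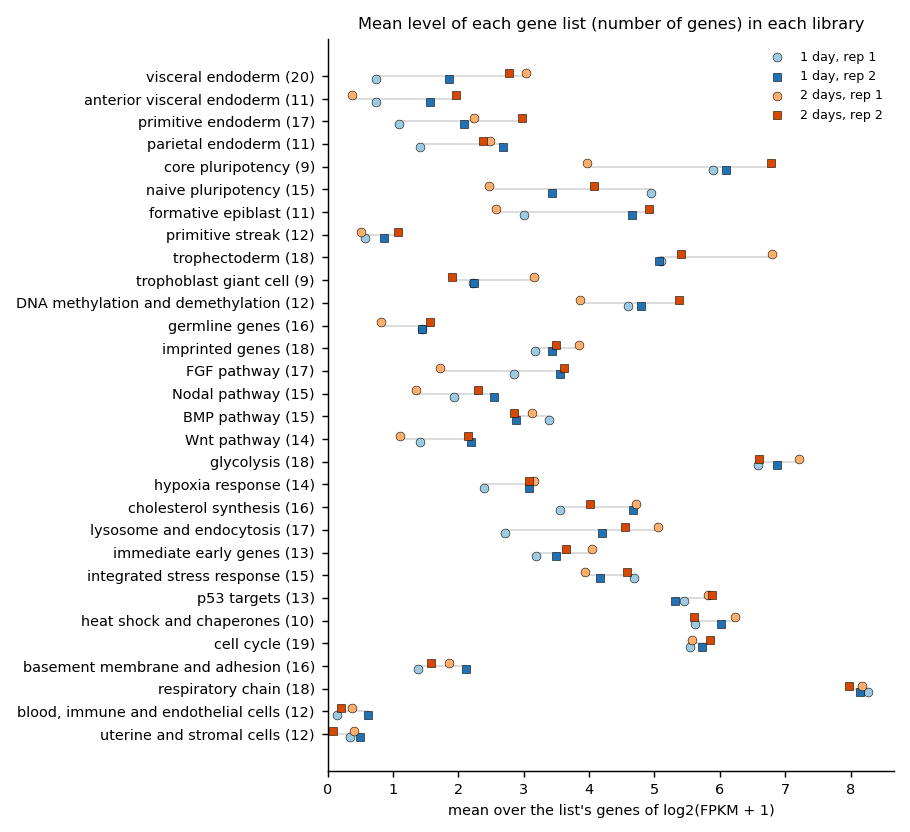
Mean over the genes of each list of log2(FPKM + 1) (horizontal axis) in each of the 4 libraries, with the number of genes in parentheses; blue marks 1 day, orange 2 days, circles replicate 1 and squares replicate 2. The visceral endoderm list is higher in both 2-day libraries (3.04 and 2.78) than in both 1-day libraries (0.74 and 1.86), while the core pluripotency and trophectoderm lists set the first 2-day library apart.

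Markers of other cells were low, and many were listed at 0. Of the streak genes, T, Evx1, Gsc, Wnt8a and Lhx1 were listed at 0 in all 4 libraries, Wnt3 reached 2.06 FPKM, and Eomes, which trophoblast also expresses, ranged from 35.3 to 74.4 FPKM. Of 12 blood, immune and endothelial genes in the table, Hbb-b1, Hba-x, Hbb-y, Alas2 and Cd52 were listed at 0 throughout, and the list summed to between 2.27 and 13.4 FPKM. The highest member was Laptm5, a lysosomal membrane protein gene of immune cells, at 2.26 and 7.47 FPKM after 1 day and 1.54 and 0.0910 FPKM after 2 days. The endothelial cadherin gene Cdh5 reached 4.99 FPKM in the first 2-day library. Of 12 uterine and stromal genes, Col1a1, Col1a2, Col3a1, Lum and Ltf were listed at 0, and the sum lay between 0.749 and 7.31 FPKM.

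Against this spread 17 of 9924 genes (0.171%) passed both thresholds, an adjusted p under 0.05 over all genes tested and a difference of at least 1 on the log2(FPKM + 1) scale. Of these 9 rose (0.0907%) and 8 fell (0.0806%) from 1 day to 2 days, and 553 genes had an unadjusted p under 0.05. Of those that rose, Tfb1m, Ptp4a3, Gdf15, Prl3d2, Cebpa, Rprl2 and Prl3d3 passed the filter through the 2-day libraries alone. Of those that fell, AI848285, Rps6kl1 and Timm8a2 passed it through the 1-day libraries alone. The counts thus depend in part on the filter. In 9 of the 17 the mean of the higher group was under 10 FPKM, and 10 of the 17 are named here outside the rule for named genes, having been chosen after their values were seen. Fitting the 4 libraries alone called 0 genes, with 462 at an unadjusted p under 0.05, and the fit without weights called 909 (9.16%), of which 580 were higher (5.84%) and 329 lower (3.32%).

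Genes of trophoblast giant cells were among those that rose. Prl3d2 and Prl3d3 belong to a cluster of closely related genes on chromosome 13 that encode placental lactogen I, the hormone giant cells secrete after implantation. Prl3d2 was listed at 0 in both 1-day libraries and stood at 5.55 and 3.55 FPKM after 2 days, a difference of 2.45 (SE 0.34, limma adjusted p = 0.00301). Prl3d3 gave 0 and 0.641 FPKM after 1 day and 3.06 and 5.99 FPKM after 2 days, a difference of 2.06 (SE 0.37, limma adjusted p = 0.0150). The third copy, Prl3d1, gave 0 and 2.00 FPKM after 1 day and 3.33 and 8.80 FPKM after 2 days and did not pass (difference 1.91, SE 0.44, limma adjusted p = 0.0919). It was called under 6 of 12 other settings that kept it. All 3 genes were above in both 2-day libraries, and all 3 averaged 0 FPKM in E3.5 trophectoderm, E4.0 inner cell mass and both E5.5 tissues. Other giant cell genes, Prl3b1 and Ctsq, were listed at 0 in all 4 libraries. Hand1, a factor of giant cell formation, ranged from 120 to 482 FPKM and Rhox6 from 15.4 to 88.8 FPKM, both highest in the first 2-day library, and Ada from 0 to 37.1 FPKM. In the giant cell list, which holds Prl3d1 but not its copies, 0 of 5 genes were called.

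The promoters of the 3 copies are shown because all 3 genes lay higher in both 2-day libraries. They are the 250 bases before the annotated start, on the plus strand of chromosome 13, from RefSeq on GRCm38.p6, a later build than the mm9 used for the expression values; all 3 copies had an entry. Capitals mark matches to GATAA, the core bound by GATA factors, and to TGANTCA, the site of AP-1, each searched on both strands. On chr13:27093939-27094188, chr13:27121445-27121694 and chr13:27156544-27156793 they read:
Prl3d1: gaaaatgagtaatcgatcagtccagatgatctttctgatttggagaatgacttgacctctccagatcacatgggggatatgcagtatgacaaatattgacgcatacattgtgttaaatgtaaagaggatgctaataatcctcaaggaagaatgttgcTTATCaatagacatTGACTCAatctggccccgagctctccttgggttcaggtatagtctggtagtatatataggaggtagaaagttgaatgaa
Prl3d2: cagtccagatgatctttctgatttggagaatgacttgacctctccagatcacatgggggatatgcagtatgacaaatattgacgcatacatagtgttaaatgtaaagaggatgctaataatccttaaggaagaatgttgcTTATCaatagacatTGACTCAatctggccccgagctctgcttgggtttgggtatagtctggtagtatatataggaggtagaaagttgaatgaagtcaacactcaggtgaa
Prl3d3: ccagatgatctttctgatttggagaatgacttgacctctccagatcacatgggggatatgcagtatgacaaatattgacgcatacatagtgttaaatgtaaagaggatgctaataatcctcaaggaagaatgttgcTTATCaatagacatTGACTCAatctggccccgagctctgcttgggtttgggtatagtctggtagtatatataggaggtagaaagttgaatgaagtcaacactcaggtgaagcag

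Without gaps, Prl3d1 and Prl3d2 were identical at 228 of 233 overlapping bases (97.9%), Prl3d1 and Prl3d3 at 225 of 229 (98.3%) and Prl3d2 and Prl3d3 at 245 of 246 (99.6%). Each window held 1 match to each motif, the GATAA match on the reverse strand lying just before the TGANTCA match. Among all 32851 promoter windows of the same length, 22.6% held GATAA, 6.75% held TGANTCA and 2.02% held both. A match describes the letters and does not show binding. How alike the transcripts are was not measured here, and since fragments of gene copies may be split among them, the level of each copy is uncertain.

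The other genes that rose have varied roles. Bc1, a small RNA gene best known from neurons, gave 0 and 24.1 FPKM after 1 day and 88.5 and 99.8 FPKM after 2 days (difference 4.25, SE 0.77, limma adjusted p = 0.0150). It was listed at 0 in all other groups. Tfb1m, a methyltransferase of mitochondrial ribosomal RNA, gave 0.230 and 0 FPKM after 1 day and 14 and 10.1 FPKM after 2 days (difference 3.54, SE 0.61, limma adjusted p = 0.0137). In its case the 1-day libraries stood apart, since group means elsewhere ran from 9.78 ± 1.39 FPKM in E3.5 trophectoderm to 24.8 ± 0.0698 in E5.5 epiblast. Cpne2, a calcium-dependent membrane-binding protein gene, gave 0.248 and 2.91 FPKM after 1 day and 11.6 and 19.6 FPKM after 2 days (difference 2.87, SE 0.53, limma adjusted p = 0.0150). Cebpa, a transcription factor of metabolic and trophoblast tissues, was listed at 0 in both 1-day libraries and stood at 4.96 and 3.94 FPKM after 2 days (difference 2.44, SE 0.39, limma adjusted p = 0.00781). Gdf15, a secreted stress-responsive factor, was listed at 0 in both 1-day libraries and stood at 8.99 and 4.75 FPKM after 2 days (difference 2.92, SE 0.57, limma adjusted p = 0.0279). The phosphatase gene Ptp4a3 gave 0.00823 and 0.714 FPKM after 1 day and 9.69 and 8.76 FPKM after 2 days. Rprl2, annotated as a relative of a ribonuclease P RNA, was listed at 0 in both 1-day libraries and stood at 3.72 and 3.12 FPKM after 2 days.

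Stefins, inhibitors of cysteine cathepsins, were among the genes that fell. Stfa1 gave 30.2 and 67.4 FPKM after 1 day and 0 and 6.75 FPKM after 2 days, a difference of -4.05 (SE 0.66, limma adjusted p = 0.00781). Csta stood at 10.6 and 13.1 FPKM after 1 day and at 1.53 and 0.477 FPKM after 2 days (difference -2.73, SE 0.48, limma adjusted p = 0.0150). BC100530, a further stefin gene, gave 5.61 and 15 FPKM after 1 day and 0 and 1.53 FPKM after 2 days. Genes of this family lie side by side and resemble each other, so fragments may be shared among them. In the embryo, Csta averaged 16.4 ± 3.84 FPKM in E3.5 trophectoderm and 0.177 ± 0.251 in E4.0 inner cell mass, and Stfa1 averaged 11.7 ± 3.05 FPKM in E3.5 inner cell mass and 0 in each of the other 12 groups outside these cultures.

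The remaining falls were in single genes of separate families. Rpl22, a protein of the large ribosomal subunit, gave 63.5 and 46.3 FPKM after 1 day and 11.4 and 4.19 FPKM after 2 days (difference -2.78, SE 0.58, limma adjusted p = 0.0458). Its level in the other tissues ran from 24.6 ± 7.99 FPKM in E3.5 trophectoderm to 164 ± 54.9 in E4.0 inner cell mass. Ribosomal protein genes have many processed copies, which the mapping may not have told apart. Rbmxl2, a retrogene for an RNA-binding protein, gave 17.8 and 6.65 FPKM after 1 day and 0 and 1.89 FPKM after 2 days (difference -2.82, SE 0.57, limma adjusted p = 0.0371). Timm8a2, a copy of a mitochondrial import chaperone gene, gave 5.85 and 13.4 FPKM after 1 day and 0 and 0.280 FPKM after 2 days. Rps6kl1, a kinase-like gene, and AI848285 completed the 8, with 6.71 and 7.35 and with 3.26 and 6.88 FPKM after 1 day and at most 0.6 FPKM after 2 days.

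**Figure D4:**
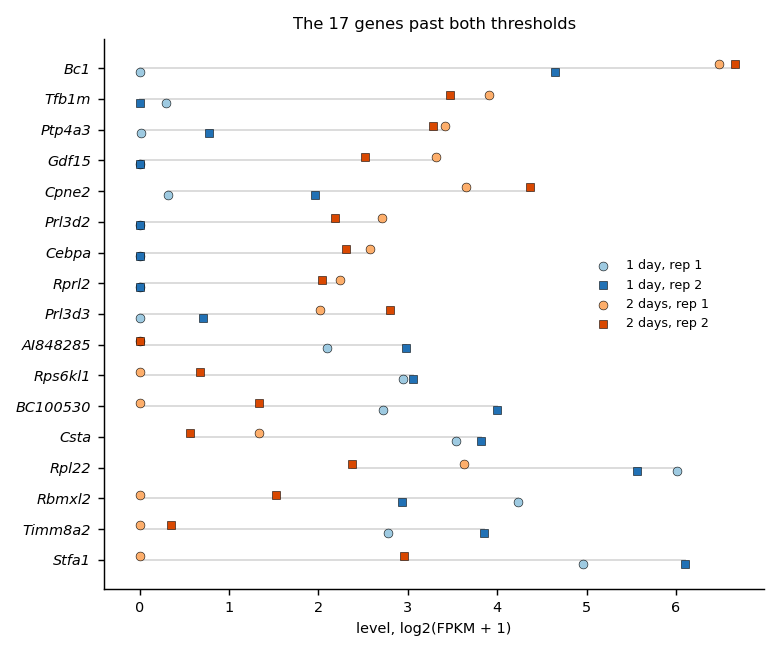
Level on the log2(FPKM + 1) scale (horizontal axis) of the 17 genes past both thresholds in each of the 4 libraries, ordered from the largest rise (Bc1) to the largest fall (Stfa1); blue marks 1 day, orange 2 days, circles replicate 1 and squares replicate 2. The groups do not overlap in any of the 17, and most values lie below 4 on this scale.

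How firmly the calls stand differed from gene to gene. Each was tried under 13 other settings or, where a stricter filter removed it, 12. Prl3d2, Rprl2 and Stfa1 stayed past the thresholds in 10 settings, and Gdf15 in 5, the lowest number. A gene listed at 0 in other groups has no spread there, which lowers its SE in the joint fit. Bc1, at 0 in all other groups, had an SE of 0.77 with 0 and 24.1 FPKM after 1 day. Ttr had an SE of 1.37 with 0 and 1.44 FPKM after 1 day. Settings that keep the other groups share this limit. Every call ended in the fit of the 4 libraries alone. Without the first 1-day library 6 genes were called in all, without the second 41, without the first 2-day library 12 and without the second 2-day library 11, and 5, 11, 5 and 6 of these were among the 17.

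Some genes of the stress lists were higher in both 2-day libraries, though none of these lists had a called member. Atf3, an early response factor, was listed at 0 in both 1-day libraries and stood at 5.38 and 16.1 FPKM after 2 days (limma adjusted p = 0.121). Ddit3 (Chop), an effector of the integrated stress response, gave 2.58 and 9.76 FPKM after 1 day and 31.2 and 55 FPKM after 2 days (limma adjusted p = 0.345). Other targets of that response had the opposite order, such as the amino acid synthesis genes Asns, at 490 and 202 FPKM after 1 day and 188 and 127 FPKM after 2 days, and Psat1, at 297 and 204 FPKM after 1 day and 184 and 174 FPKM after 2 days. Of 12 integrated stress genes tested 0 were called, 1 lay above and 5 below, and the median difference was -0.43. The p53 target Cdkn1a, a brake on the cell cycle, gave 45.8 and 62.7 FPKM after 1 day and 98.5 and 115 FPKM after 2 days, and the pro-apoptotic Bbc3 (Puma) gave 12.1 and 11.2 FPKM after 1 day and 26.4 and 38.0 FPKM after 2 days. Their limma adjusted p were 1 and 0.982. Zmat3 and Eda2r, further p53 targets, were also above in both 2-day libraries, at 3.10 to 4.05 and 5.49 to 7.82 FPKM after 1 day and 7.02 to 8.72 and 10.9 to 19.6 FPKM after 2 days. Among 13 p53 targets 0 were called, and 6 lay above and 0 below, against 18.4% above and 15.6% below among all genes tested. The median was 0.51, and with no weights 1 of the 13 was called higher, where 5.84% of all genes were. The chaperones of the endoplasmic reticulum Hspa5 and Hsp90b1 were lowest in the first 1-day library, at 25.5 and 11.7 FPKM, and highest in the first 2-day library, at 252 and 146 FPKM. Heat shock genes had 0 of 8 called and a median of -0.09.

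Lysosomal and endocytic genes, which visceral endoderm uses to digest what it takes up, had 9 of 15 members above in both 2-day libraries and 1 below. Among all genes tested 18.4% lay above and 15.6% below. None of the 15 was called, and the median difference was 0.98. With no weights 5 of the 15 were called higher, where 5.84% of all genes were. The list shares Amn and Dab2 with the endoderm lists. Legumain (Lgmn), a lysosomal protease, gave 5.15 and 23.4 FPKM after 1 day and 52.7 and 40.1 FPKM after 2 days (limma adjusted p = 0.462). Cathepsin H (Ctsh) gave 0 and 4.48 FPKM after 1 day and 35.5 and 5.20 FPKM after 2 days (limma adjusted p = 0.462). The mean level of the list was 2.72 and 4.20 after 1 day and 5.06 and 4.55 after 2 days on the log2(FPKM + 1) scale.

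Of the imprinted genes, Phlda2 and Cdkn1c were highest in the first 2-day library, and Peg10 in the second. Phlda2, which restrains placental growth, gave 173 and 27.4 FPKM after 1 day and 3650 and 80.9 FPKM after 2 days. Cdkn1c, an inhibitor of the cell cycle, gave 15 and 21.6 FPKM after 1 day and 344 and 40.3 FPKM after 2 days (limma adjusted p = 0.439). Peg10, a retrotransposon-derived gene needed for the placenta, gave 2.02 and 1.25 FPKM after 1 day and 4.27 and 6.99 FPKM after 2 days. Of 15 imprinted genes tested 0 were called, 4 lay above, 4 below and 7 overlapped, and the median difference was 0.40. Over all genes tested 18.4% lay above and 15.6% below. The first 2-day library had the highest summed trophectoderm list, 5860 FPKM beside 2220 to 2680 in the other 3.

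No signalling gene of the lists was called. In the FGF pathway, the feedback inhibitor Spry2 stood at 450 and 402 FPKM after 1 day and at 98.6 and 1100 FPKM after 2 days. The receptor Fgfr2 ranged from 4.22 to 26.2 FPKM with overlap, and Fgfr4 was at most 0.499 FPKM after 1 day and 1.28 and 1.56 FPKM after 2 days. The receptor Fgfr1 gave 4.78 and 14.9 FPKM after 1 day and 2.54 and 1.94 FPKM after 2 days. In the Nodal pathway, the ligand itself was listed at 0 in the first library of each time and stood at 4.27 and 2.64 FPKM in the second. Pcsk6, a protease that processes Nodal, gave 8.35 and 2.51 FPKM after 1 day and 1.41 and 0.586 FPKM after 2 days (limma adjusted p = 0.705). The BMP ligand genes Bmp4 and Bmp8b were lower in both 2-day libraries, with 117 and 104 FPKM against 28.4 and 55.8 FPKM for Bmp4 and 13.4 and 28.3 FPKM against 11.6 and 3.5 FPKM for Bmp8b (limma adjusted p = 1 and 0.461). The receptor gene Bmpr1a gave 5.23 and 7.89 FPKM after 1 day and 4.10 and 0.795 FPKM after 2 days. Among Wnt ligands, Wnt7b ranged from 66.7 to 109 FPKM and Wnt6 from 3.43 to 13.4 FPKM. The numbers called were 0 of 14 FGF, 0 of 13 Nodal, 0 of 13 BMP and 0 of 9 Wnt genes, with medians of -0.50, -0.57, -0.17 and -0.26. Over all genes tested 0.171% were called in either direction.

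No gene was called in the lists of glycolysis, hypoxia, cholesterol synthesis, cell cycle and respiratory chain. Over all genes tested 0.171% were called in either direction. The median differences were 0.04 for 18 glycolysis genes, 0.42 for 11 hypoxia genes, 0.09 for 15 cholesterol synthesis genes, 0.02 for 19 cell cycle genes and -0.15 for 18 respiratory chain genes. The glucose transporter gene Slc2a3 gave 4.17 and 18.3 FPKM after 1 day and 34.2 and 21 FPKM after 2 days, and hexokinase 2 (Hk2) 18.7 and 20.6 FPKM after 1 day and 22 and 51.1 FPKM after 2 days. Insig1, a sensor of sterols, gave 94.5 and 159 FPKM after 1 day and 182 and 335 FPKM after 2 days. All 3 were above in both 2-day libraries with limma adjusted p = 1. Ccnb2, a mitotic cyclin, gave 98.0 and 106 FPKM after 1 day and 183 and 191 FPKM after 2 days (limma adjusted p = 0.900). Pcna, the clamp of DNA replication, gave 244 and 327 FPKM after 1 day and 129 and 153 FPKM after 2 days, with limma adjusted p = 1. The cell cycle inhibitor Cdkn1b gave 9.47 and 12.1 FPKM after 1 day and 19.1 and 56.1 FPKM after 2 days, with limma adjusted p = 1. Immediate early, germline and basement membrane lists also had 0 called, of 11, 9 and 12 genes tested, with medians of 0.52, 0.15 and 0.18. The early response gene Jun gave 0.0874 and 2.95 FPKM after 1 day and 5.72 and 4.75 FPKM after 2 days. The laminin gene Lamc1 gave 0.604 and 1.16 FPKM after 1 day and 2.65 and 3.85 FPKM after 2 days, while fibronectin (Fn1) gave 2.79 and 4.31 FPKM after 1 day and 0.0542 and 2.75 FPKM after 2 days. The germline gene Ddx4 (Vasa) gave 0.102 and 0 FPKM after 1 day and 4.87 and 1.21 FPKM after 2 days (limma adjusted p = 0.774).

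The change from 1 to 2 days of culture was set against the change from E4.0 inner cell mass to E5.5 epiblast. Each change was taken within its own table. The stages were not matched, since cultured embryos were flushed at E4.5 and the culture comparison began 1 day later. A change that was complete by 1 day of culture would not appear as a change in culture. The difference of the 2 changes passed both thresholds for 376 of 9924 genes (3.79%), with the change in culture the higher in 267 (2.69%) and the lower in 109 (1.1%). Amn had a change of -4.75 from inner cell mass to epiblast and of 3.81 in culture (difference 8.56, SE 1.22, limma adjusted p = 3.69e-04). Dab2 and Apom differed likewise, by 7.40 (limma adjusted p = 0.00106) and 5.48 (limma adjusted p = 0.0275). Of the primitive endoderm list 12 of 15 tested genes had the higher change in culture and 0 the lower. The inner cell mass gives both epiblast and primitive endoderm, while E5.5 epiblast was taken apart from the endoderm. Removal of endoderm cells and a change within cells therefore cannot be told apart for these genes. Of the formative list 3 of 10 had the lower change in culture and 0 the higher. Dnmt3b had a change of 3.34 towards the epiblast and of -0.51 in culture (difference -3.85, limma adjusted p = 0.0283). Dnmt3a had a change of 2.43 towards the epiblast, and its change in culture of 0.65 was not called different from that (difference -1.78, limma adjusted p = 0.519).

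Set against the change from E4.0 inner cell mass to E5.5 visceral endoderm, the change in culture differed for 758 genes (7.64%), 625 with the higher (6.3%) and 133 with the lower (1.34%) change in culture. Both comparisons with the embryo share the E4.0 and the culture libraries. Ttr had a change of 9.87 towards visceral endoderm and of 4.32 in culture, and the difference of -5.56 (SE 1.55, limma adjusted p = 0.0337) was called. It ended when any 1 of the 4 libraries was left out, at adjusted p between 0.0892 and 0.184. Apom and Lgals2 had changes of 7.16 and 5.71 towards visceral endoderm and differed from that in culture by -2.33 and -1.42, which did not pass (limma adjusted p = 0.306 and 0.532). Nanog had a change of -8.46 towards visceral endoderm, and the difference of 6.09 was called (limma adjusted p = 0.0381). Of the visceral endoderm list 3 of 10 had the lower change in culture and 0 the higher. Of the integrated stress genes 6 of 12 had the higher change in culture and 0 the lower. Among the 6 only Ddit3 rose in culture, by 2.78, and it was not called between the days. Asns, Mthfd2, Psat1, Chac1 and Atf4 had changes of -1.02 to -0.03 in culture. Their changes towards visceral endoderm were -6.28 to -3.12, so the count reflects falls in the embryo and not rises in culture. The E4.0 and E5.5 libraries differ in mating, in how RNA was taken and in the lineages they hold. None of these can be told apart from the change with stage.

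**Figure D5:**
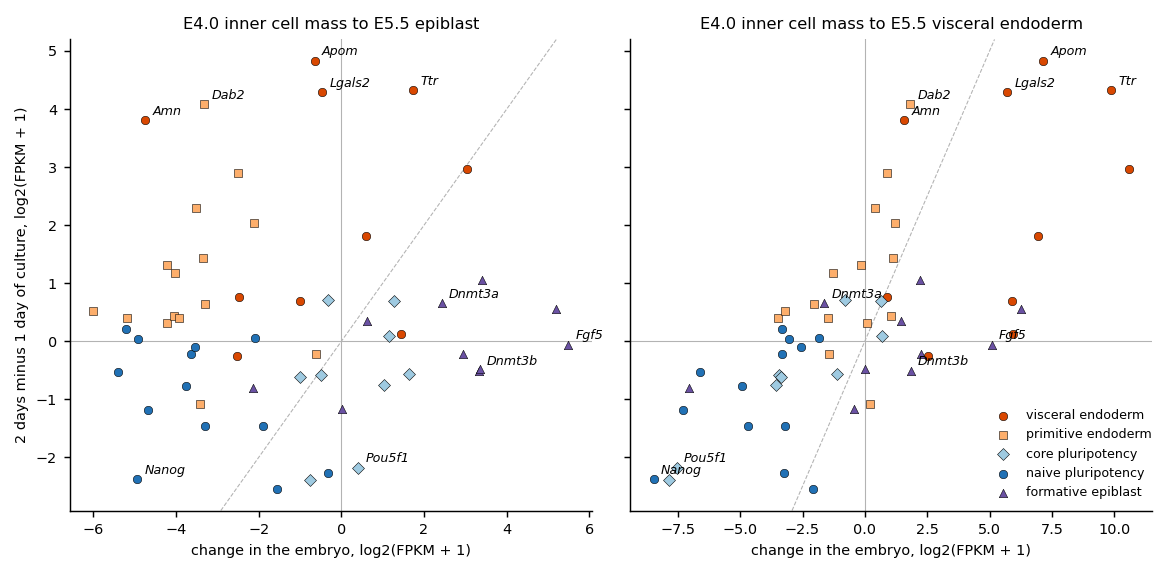
Difference between 2 days and 1 day of culture (vertical axis) against the change from E4.0 inner cell mass to E5.5 epiblast (left) or to E5.5 visceral endoderm (right) on the horizontal axis, both on the log2(FPKM + 1) scale, for the tested genes of 5 lists. The dashed line marks equal changes; Ttr, Apom and Lgals2 lie high in both panels and to the right in the second, and Amn and Dab2 lie far left of the line in the first.

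Over the 9924 genes each cultured library was also correlated with the mean of every other expression group, as a description of values that share genes and scale but come from separate tables. The highest Pearson r for all 4 was with the epiblast of embryos cultured 4 days, at 0.783 and 0.844 for 1 day and 0.812 and 0.803 for 2 days. For the first 2-day library the next was the visceral endoderm of embryos cultured 4 days, at 0.808, and for the second 2-day library E5.5 epiblast, at 0.786.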

How the data were processed

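Expression of the 4 libraries was deposited by the authors as FPKM per gene, and the submitters' processing notes name mm9, TopHat2 2.0.11 and Cufflinks 2.0.2. From these values, log2(FPKM + 1) was tested with limma 3.58.1, run in R 4.3.3. All 15 expression groups (30 libraries, 22563 genes shared by 3 separately made tables) entered 1 fit with a mean-variance trend and a weight per group. The test kept 9924 genes with at least 1 FPKM in at least 2 of the 4 libraries, and contrasts stayed within a table. A gene could pass this filter through the libraries of 1 culture time alone. Values of 1e-06 or less were set to 0. Calls needed a Benjamini-Hochberg adjusted p under 0.05 over all genes tested and a log2 difference of at least 1, and log2(FPKM + 1) understates changes of low genes. The spread behind each p-value came from all 15 groups, scaled by the weight of each group, and not from the 4 libraries alone. With 2 libraries a group, spread between samples may be technical. The fit was also run on simulated data, in which all genes of a group had the same spread and only genes of higher level were changed. Such data do not cover changes in genes near 0 FPKM, and no conclusion is drawn from them. Named were 5 markers, the 10 largest rises and falls of the genes called, where the higher group averaged 10 FPKM or more and groups did not overlap (3 and 4 met this), up to 4 members of each of 30 lists by adjusted p, all methylation genes, and 4 genes each way per difference of changes. Clone symbols and pseudogenes were passed over. Members, lists and weights were chosen with earlier results of these data known. Other list members are given to describe a list and were picked after their values were seen. A set of 13 alternatives (weights, libraries in the fit, pseudocount, filter, normalization, block, libraries left out) was tried. Some members of the lists are not reported here by name.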

Additional observations from a re-analysis of the deposited data

Results flagged for a closer look

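The change in culture differed from a change in the embryo for 376 genes against E4.0 inner cell mass to E5.5 epiblast and for 758 genes against E4.0 inner cell mass to E5.5 visceral endoderm, by limma's test of the difference itself. Given here are the 4 largest each way among genes whose culture groups did not overlap and whose higher culture group averaged 10 FPKM or more. Others differed as much but had overlapping culture groups, such as Slc16a3 (-6.20, adjusted p = 0.0351) against epiblast and H19 (-7.76, adjusted p = 0.00341) and Trf (-5.83, adjusted p = 0.00460) against visceral endoderm. Values are on the log2(FPKM + 1) scale, as the change in culture minus the change in the embryo, with limma adjusted p. The E4.0 and E5.5 tissues differ in the lineages they hold, which cannot be told apart from the change with stage. The stages of culture and embryo were also not matched.

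Against the change to epiblast, the higher change in culture was that of the proteoglycan gene Srgn (9.99, adjusted p = 4.88e-04), the water channel Aqp8 (8.82, adjusted p = 0.00123), the sialic acid lyase Npl (8.76, adjusted p = 1.46e-04) and the receptor gene Amn (8.56, adjusted p = 3.69e-04). All 4 were lower in E5.5 epiblast than in E4.0 inner cell mass, with changes between -6.56 and -4.54, and had differences of 2.82 to 4.22 in culture. Npl gave 0.244 and 0 FPKM after 1 day and 8.77 and 43.1 FPKM after 2 days. The lower change in culture was that of the immune GTPase Irgm1 (-6.48, adjusted p = 0.00641), the carbonyl reductase Cbr3 (-6.03, adjusted p = 6.19e-04), the imprinted gene Nnat (-6.00, adjusted p = 0.00599) and the trafficking GTPase Rab25 (-5.29, adjusted p = 0.00324). Cbr3 went in the embryo from 0.444 ± 0.424 to 21.2 ± 9.28 FPKM (SD, n = 2) and gave 16.5 and 37.3 FPKM after 1 day and 2.88 and 8.07 FPKM after 2 days of culture.

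Against the change to visceral endoderm, the higher change in culture was that of the stress factor Atf3 (8.29, adjusted p = 3.47e-05), Glipr2 (8.20, adjusted p = 1.41e-06), the stress factor Ddit3 (7.33, adjusted p = 2.30e-04) and the lectin gene Lgals3 (6.97, adjusted p = 1.11e-04). All 4 were lower in E5.5 visceral endoderm than in E4.0 inner cell mass, with changes between -7.8 and -4.55. Their differences in culture were 0.4 to 3.39, and none of these was called between the days. Atf3 went in the embryo from 33.1 ± 17.4 to 0.0622 ± 0.088 FPKM. Glipr2 stood at 121 and 83.0 FPKM after 1 day and at 122 and 145 FPKM after 2 days. In the embryo Glipr2 went from 364 ± 88.8 to 0.613 ± 0.00843 FPKM. The lower change in culture was that of the imprinted RNA gene Meg3 (-7.62, adjusted p = 0.0192), the proteoglycan gene Gpc3 (-5.63, adjusted p = 0.00219), Ttr (-5.56, adjusted p = 0.0337) and the imprinted gene Mest (-5.09, adjusted p = 0.0311). Mest gave 60.5 and 86.5 FPKM after 1 day and 37.0 and 29.3 FPKM after 2 days. Leaving out a library ended some of these calls: Ttr and Mest without any 1 of the 4 libraries (adjusted p from 0.0892 to 0.184 and from 0.0941 to 0.173), Meg3 without the first 1-day (0.117) or the second 2-day library (0.169), Nnat without the second 1-day (0.0658) or the first 2-day library (0.0914), and Irgm1 without the first 2-day library (0.0613). Groups had 2 libraries, too few for a check of single samples that stand apart.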

How the results depend on the processing

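Of 17 genes called between 2 days and 1 day (9 higher, 8 lower), the number became 909 (580, 329) with no weights, 0 (0, 0) in the 4 libraries alone, 1 (1, 0) with a pseudocount of 0.1 FPKM, 61 (33, 28) with no filter, 29 (15, 14) with the filter over all 30 libraries, and 5 higher with a filter at 5 FPKM. Leaving out a library gave 6 to 41 calls in all, 2 to 30 higher and 4 to 11 lower. The 376 genes whose change differed from that towards epiblast became 1740 with no weights, 191 with the pseudocount of 0.1, 643 with the filter over 30 libraries and 176 to 242 with a library left out. The 758 towards visceral endoderm became 3491, 425, 1214 and 117 to 421. The unweighted fit gives every group the same spread, and the fit of 4 libraries has 2 residual degrees of freedom. The cause of the other shifts was not tested. Weights per library called 17 genes and quantile normalization 12.

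Replicate numbers are shared by the culture times, but nothing in the labels pairs them, and the differences between replicates of the 2 times correlated with r = 0.0523 over 9924 genes. A replicate block, a term for replicate number, called 24 genes, among them all 17, 403 and 743 in the comparisons with the embryo. Among 131 single genes compared between the days no called direction turned under any setting, and leaving out a library ended 6 to 12 of the 17 calls. When a library is left out, the lone library of that time shares its weight with the other culture time. It is thus assumed to vary as the libraries of that other time do. Depth is known only relative to the other libraries, so levels near 0 cannot be told from absence.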
